A study of Mus musculus with 20 samples.

Results

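The 10 genes described here encode the best studied mouse members of the BCL2 family and were taken by symbol from the table of counts: Bcl2, Bcl2l1, Mcl1, Bcl2a1b, Bcl2a1d, Bax, Bak1, Bcl2l11, Pmaip1 and Bid. They are 10 of the 49315 Ensembl gene IDs in the table, found through the names that GENCODE M21 gives those IDs, and all 10 were among the 28082 genes that passed the filter on low counts.

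BCL2 family proteins decide at the outer mitochondrial membrane whether a cell releases cytochrome c and starts the caspases that dismantle it. The guardians (BCL2, BCL-XL, MCL1 and A1) hold the pore-forming effectors BAX and BAK in check, and the BH3-only proteins (such as BIM, NOXA and BID) bind guardians or effectors and tip the balance towards death. In T cells BCL2 and MCL1 keep resting cells alive, BCL-XL and A1 are known to be induced by antigen receptor signals, and BIM is known for the death of T cells at the end of a response.

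By role and on GRCm38, the guardian genes are Bcl2 (ENSMUSG00000057329, chr1:106538178-106714274, minus strand), Bcl2l1 (ENSMUSG00000007659, chr2:152780668-152831728, minus), Mcl1 (ENSMUSG00000038612, chr3:95658788-95663176, plus), Bcl2a1b (ENSMUSG00000089929, chr9:89199209-89207827, plus) and Bcl2a1d (ENSMUSG00000099974, chr9:88723285-88731914, minus). The effector genes are Bax (ENSMUSG00000003873, chr7:45461697-45466898, minus) and Bak1 (ENSMUSG00000057789, chr17:27019810-27029009, minus). The BH3-only genes are Bcl2l11 (ENSMUSG00000027381, chr2:128126038-128162547, plus), Pmaip1 (ENSMUSG00000024521, chr18:66458533-66465565, plus) and Bid (ENSMUSG00000004446, chr6:120891930-120916853, minus).

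RNA was sequenced from sorted splenic CD4+CD25- T effector cells of mice in 4 groups. The groups were CKO cells (Fl-Pcbp2/CD4cre) kept for 6 h with CD3/CD28 activator beads (n = 3 libraries), CTL cells (Fl-Pcbp2) kept likewise (n = 5), CKO cells at 0 h, without stimulation (n = 6), and CTL cells at 0 h (n = 6). Both genotypes carry the floxed Pcbp2 gene, which encodes an RNA-binding protein; the CKO mice add Cre recombinase driven by Cd4 sequences, which acts in developing T cells, so the deletion precedes the mature cells studied. The mice were littermates, while the sources used here name neither age nor strain. Every 6 h library comes from cells with beads, so the stimulus and the time in culture cannot be told apart. Libraries are named by the number in their title, such as 4.24; the labels do not tie a number to an animal, and p-values measure the spread between these libraries.

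Counts summed to between 26427467 and 85608113 per library, and levels are given as CPM, the count relative to the TMM-scaled library size. The CTL 6 h library 4.24 stood apart, with 26427467 counts against 62402807 to 69372546 in the other 4 of its group. Despite fewer counts it had more detected genes, 41192 against 35887 to 40484 in those 4. Its TMM factor, 1.37, was the highest of its group, so it differed in more than depth. Values without it are given beside some of the results it moved. By label all CKO 0 h libraries were male, while each other group held both sexes. The sex labels of 2 CKO 0 h libraries, 4.24 and 5.6, went against their level of Xist, and no sex term was used. By Xist every group held both sexes. T cell markers summed to between 1676 and 5794 CPM in every library, B cell markers to between 16.9 and 341.8 CPM and myeloid markers to between 29.5 and 198.6 CPM, and none of the markers was at 0 in every library. In bulk RNA, fewer cells of a type and less RNA per cell cannot be told apart. Pcbp2 itself averaged 8.72 ± 2.24 CPM in CKO against 322 ± 34.5 CPM in CTL cells at 6 h (SD, n = 3 and 5), and 17.0 ± 3.39 CPM in CKO against 333 ± 46.9 CPM in CTL cells at 0 h (SD, n = 6 each), so the genotype labels held in all 20 libraries.

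Bcl2a1b and Bcl2a1d, which encode A1 proteins, are near-identical copies on chromosome 9, and their sequences are shown because they limit what the counts of each copy can say. The first 60 coding bases of both copies and of their relative Bcl2a1a are printed here from the GRCm38 transcripts, with capitals at the positions where any of the 3 copies differ.

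Bcl2a1b: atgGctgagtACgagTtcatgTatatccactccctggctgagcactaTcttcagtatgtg
Bcl2a1d: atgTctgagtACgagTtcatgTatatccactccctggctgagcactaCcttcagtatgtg
Bcl2a1a: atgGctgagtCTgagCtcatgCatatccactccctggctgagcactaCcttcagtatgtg

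These windows lie at chr9:89199360-89199419 on the plus strand (Bcl2a1b), chr9:88731660-88731719 on the minus strand (Bcl2a1d) and chr9:88957051-88957110 on the plus strand (Bcl2a1a), each within a single exon. Over the 516 coding bases Bcl2a1b and Bcl2a1d differ at 6 positions, an identity of 98.8%. Of all windows of 150 bases, the read length, 14.2% in the Bcl2a1b transcript and 30.3% in the Bcl2a1d transcript are shared exactly with another copy. The sources used here do not say how reads matching several copies were counted, so the level of each copy is uncertain and the pair is best read together. Bcl2a1a was low, at 0.24 to 1.83 CPM over the 20 libraries.

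The 250 bases before the RefSeq start of transcription are shown for the Bcl2a1 pair, whose levels moved together, and for Bcl2l11 at its first listed start, the BH3-only gene that was called higher at 6 h in both genotypes. The sequences are from RefSeq, build GRCm38.p6. Capitals mark an AP-1-like letter pattern (TGANTCA) in the Bcl2a1 promoters and a FOXO pattern (GTAAACA) in that of Bcl2l11. The AP-1-like pattern allowed any middle base, so C or G was not required there, and both marked stretches read TGAATCA.

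Bcl2a1b: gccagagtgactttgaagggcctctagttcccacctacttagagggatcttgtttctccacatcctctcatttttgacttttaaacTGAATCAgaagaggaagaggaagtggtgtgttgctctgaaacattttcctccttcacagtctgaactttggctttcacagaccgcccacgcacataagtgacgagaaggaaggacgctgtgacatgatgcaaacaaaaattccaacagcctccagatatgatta
Bcl2a1d: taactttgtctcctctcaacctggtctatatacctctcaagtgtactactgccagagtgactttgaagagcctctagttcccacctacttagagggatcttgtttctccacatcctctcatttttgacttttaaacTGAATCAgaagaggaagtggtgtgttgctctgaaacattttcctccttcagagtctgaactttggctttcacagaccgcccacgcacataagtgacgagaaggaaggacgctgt
Bcl2l11: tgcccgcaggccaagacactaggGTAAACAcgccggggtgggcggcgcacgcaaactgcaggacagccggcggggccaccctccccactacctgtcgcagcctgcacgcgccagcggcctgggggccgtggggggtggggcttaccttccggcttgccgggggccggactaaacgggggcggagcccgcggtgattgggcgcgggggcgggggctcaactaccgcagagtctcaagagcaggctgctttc

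The windows are chr9:89199023-89199272 on the plus strand for Bcl2a1b, chr9:88731851-88732100 on the minus strand for Bcl2a1d and chr2:128125788-128126037 on the plus strand for Bcl2l11. The 2 Bcl2a1 windows align over 206 columns, of which 198 are identical (96.1%). Motifs were searched on both strands in 250-base windows; the search also covered a kB pattern, GGG and CC with 5 bases between them, and the CRE pattern TGACGTCA. Over 32851 promoter windows, 6.75% held the AP-1-like pattern, 3.17% the FOXO pattern, 1.55% the CRE pattern and 45.8% the kB pattern. Among the members, Pmaip1 was left out of this search. Promoter windows of the other 9 of the 10 members were used, 12 windows in all. The AP-1-like pattern was in those of the Bcl2a1 pair and no others, and the FOXO pattern in 1, of Bcl2l11. The CRE pattern was in 0, and the kB pattern in 8, none of them of the Bcl2a1 pair. A letter match is a description and does not show that a factor binds there.

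Levels of different genes were compared on a per-length scale (CPM per kb of exon). The length counts the annotated exons of every transcript of a gene, so places and ratios depend on the annotation. On this scale Mcl1 was the most abundant member in every group. Its mean level was 274 ± 3.65 in CKO and 231 ± 35.6 in CTL cells at 6 h (SD, n = 3 and 5). At 0 h it was 206 ± 13.8 in CKO and 180 ± 19.1 in CTL cells (SD, n = 6 each). MCL1 is a short-lived guardian that T cells need at every stage. Bax was second in every group, with mean levels per kb of 75.5 ± 3.52 in CKO and 79.3 ± 8.26 in CTL cells at 6 h, and of 63.3 ± 5.89 in CKO and 52.7 ± 5.30 in CTL cells at 0 h. At 0 h the next places were held by Bcl2, Bcl2a1b and Bak1, whose mean levels per kb lay between 26.5 and 31.9 in CKO cells and between 20.9 and 24.03 in CTL cells, within the spread of their neighbours. Bcl2a1d and Bcl2l11 followed, and Bid, Bcl2l1 and Pmaip1 were lowest, with mean levels per kb of 5.99 to 7.64 in CKO and 4.05 to 5.99 in CTL cells. At 6 h the order below Bax had changed: Bcl2a1b came next, at 41.1 ± 15.6 per kb in CKO and 56.2 ± 18.5 in CTL cells. Bcl2l11, Bcl2a1d, Bcl2l1, Bcl2 and Bak1 came next with means of 20.6 to 32.0 in CKO and 16.4 to 29.5 in CTL cells, overlapping within their SDs for most neighbours. Bid and Pmaip1 were last at 6 h, at 7.99 ± 2.72 and 7.85 ± 1.33 per kb in CKO cells and 7.03 ± 1.81 and 4.20 ± 1.31 per kb in CTL cells.

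**Figure D1:**
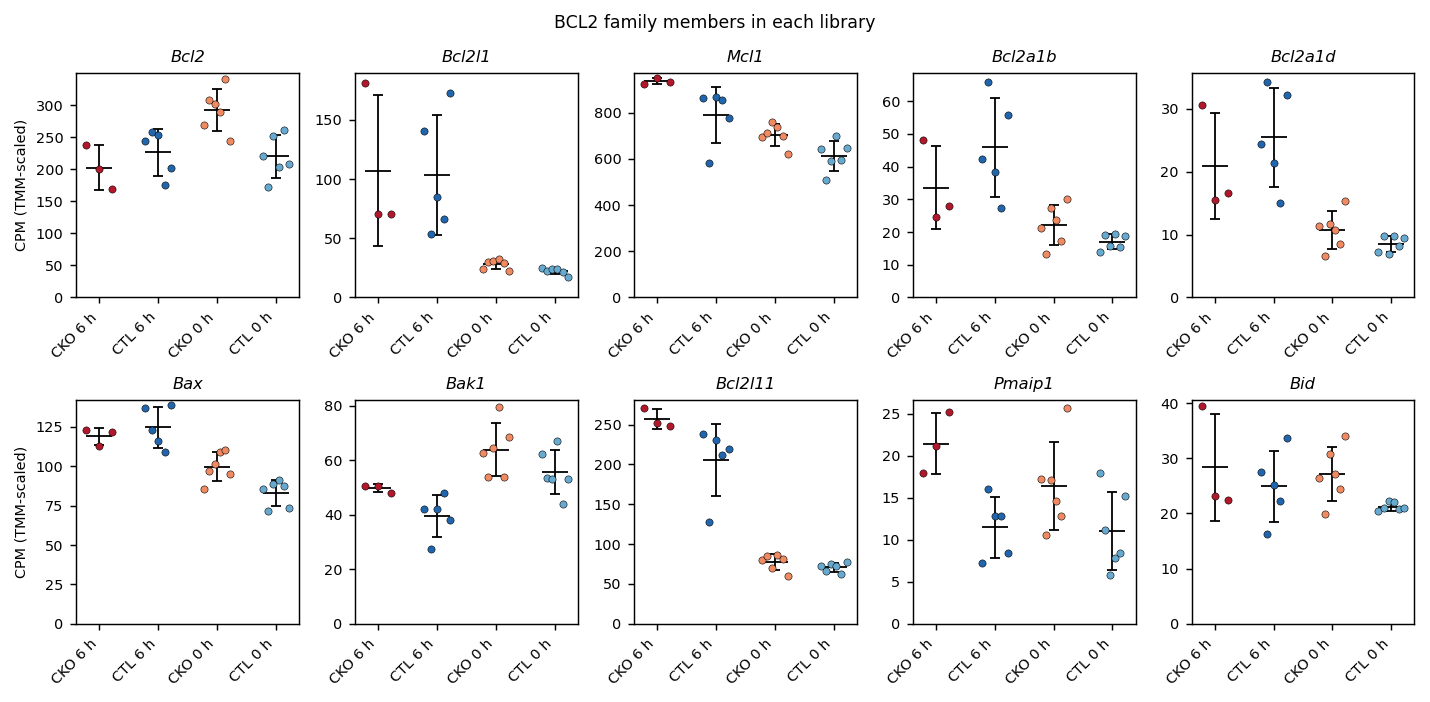
Level of each of the 10 members in each library (TMM-scaled CPM, y axes from 0), by group: CKO 6 h (n = 3), CTL 6 h (n = 5), CKO 0 h (n = 6) and CTL 0 h (n = 6). Points are libraries, the horizontal bar is the mean and the error bar the SD. Bcl2l1 and Bcl2l11 stand higher at 6 h in both genotypes, and Bcl2l1 spreads between 53.9 and 181 CPM among the 6 h libraries.

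The first question was how the members responded to 6 h with beads in each genotype. A gene is called where the edgeR quasi-likelihood test gave a Benjamini-Hochberg adjusted p under 0.05 over the 28082 genes tested. In CKO cells 5 of the 10 members were called, 4 higher and 1 lower, where 36% of all genes tested were called (22.3% higher and 13.7% lower). In CTL cells 7 of the 10 were called, 6 higher and 1 lower, where 60.7% of all genes tested were called (40.2% higher and 20.5% lower). Both shares are near or not far above these backgrounds, so the total count of called members is no result about the family. Among the 14189 genes with a mean of at least 1 CPM, 1459 were called higher and 3450 lower in CKO cells. In CTL cells 2411 of these genes were called higher and 5215 lower. Most calls among the members were higher instead, and this difference in direction was not tested. The median log2 fold change of the members was 0.40 in CKO and 0.48 in CTL cells, beside 0.15 and 0.32 over all genes tested. Over genes with a mean of at least 1 CPM in the same fit it was -0.14 and -0.18. With filter and scaling on genes with a mean of at least 1 CPM, that median was -0.0062 in CKO and 0.037 in CTL cells. The lean of this background to lower values thus depended on the genes used for scaling. T cell markers summed to 2155 to 2550 CPM in CKO and 1676 to 2484 CPM in CTL cells at 6 h, against 4638 to 5794 CPM in CKO and 4080 to 5456 CPM in CTL cells at 0 h, with all 7 called lower in both genotypes. B cell markers summed to 21.03 to 86.7 CPM in CKO and 16.9 to 35.6 CPM in CTL cells at 6 h, against 49.9 to 220.5 CPM in CKO and 64.0 to 341.8 CPM in CTL cells at 0 h. Myeloid markers summed to 37.0 to 80.7 CPM in CKO and 29.5 to 60.995 CPM in CTL cells at 6 h, against 78.9 to 192.7 CPM in CKO and 66.2 to 198.6 CPM in CTL cells at 0 h. Both sums were apart between the times in CTL cells and overlapped in CKO cells. The part of these markers in the members' changes was not tested.

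Among the guardians, Bcl2l1 rose most. The gene, which encodes BCL-XL, stood at 70.3, 70.2 and 181 CPM in CKO cells at 6 h (libraries 5.13, 5.6 and 11.18) and at 85.2, 53.9, 66.0, 172 and 141 CPM in CTL cells at 6 h (libraries 4.29, 4.24, 5.13, 9.20 and 10.28; both groups keep this order below). At 0 h its lowest, median and highest levels were 22.7, 29.5 and 32.3 CPM in CKO cells and 17.4, 23.4 and 24.7 CPM in CTL cells. Every 6 h library exceeded every 0 h library, and the 6 h libraries 11.18, 9.20 and 10.28 stood well above the other 5. On the log2 scale the change was 1.93 ± 0.30 (SE; adjusted p = 0.000108, edgeR) in CKO and 2.20 ± 0.27 (adjusted p = 3.73e-06, edgeR) in CTL cells. Without library 11.18 the CKO change was 1.31.

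Both Bcl2a1 copies rose in CTL cells, and Bcl2a1d in CKO cells. Bcl2a1b had 24.7, 27.9 and 48.2 CPM in CKO and 38.3, 65.9, 27.2, 55.7 and 42.3 CPM in CTL cells at 6 h, against lowest, median and highest levels of 13.3, 22.5 and 30.0 CPM in CKO and 14.04, 17.2 and 19.4 CPM in CTL cells at 0 h. Bcl2a1d had 15.5, 16.6 and 30.6 CPM in CKO and 21.4, 34.3, 15.04, 32.2 and 24.4 CPM in CTL cells at 6 h, against 6.58, 11.1 and 15.3 CPM in CKO and 6.92, 8.86 and 9.76 CPM in CTL cells at 0 h. In CTL cells the 6 h and 0 h groups were apart for both copies; in CKO cells they overlapped for Bcl2a1b and were apart by a narrow margin for Bcl2a1d. In CTL cells the log2 fold changes were 1.43 ± 0.23 for Bcl2a1b and 1.57 ± 0.23 for Bcl2a1d (adjusted p = 5.44e-05 and 2.15e-05, edgeR). In CKO cells Bcl2a1d was called at 0.97 ± 0.26 (adjusted p = 0.00767, edgeR), a call lost without library 11.18 (0.58, adjusted p = 0.12), while Bcl2a1b, at 0.60 ± 0.26, was not (adjusted p = 0.072, edgeR). The Bcl2a1b call in CKO cells was gained with DESeq2 (adjusted p = 0.040), with a filter at 1 CPM (adjusted p = 0.048, edgeR) and in 3 of 20 fits that left out 1 library (adjusted p from 0.042, edgeR). Without library 11.18 its value was 0.24 (adjusted p = 0.54, edgeR).

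Mcl1 rose by a smaller amount. It had 949, 935 and 924 CPM in CKO and 867, 582, 857, 776 and 863 CPM in CTL cells at 6 h, against lowest, median and highest levels of 622, 707 and 759 CPM in CKO and 508, 618 and 699 CPM in CTL cells at 0 h. The CKO groups were apart, and the CTL groups overlapped only through library 4.24, the lowest of the 6 h libraries. Mcl1 changed by a log2 fold change of 0.41 ± 0.12 in CKO and 0.36 ± 0.11 in CTL cells (adjusted p = 0.0153 and 0.00687, edgeR). The CTL value is close to the median of all genes tested in that comparison, 0.32. Over genes with a mean of at least 1 CPM that median was -0.18, and 0.037 where filter and scaling used only such genes. Without the CTL 6 h library 4.24, Mcl1 was at 0.47 in CTL cells (adjusted p = 0.000108, edgeR), beside a median of 0.14 over all genes tested. The Mcl1 calls were lost in 7 of 20 fits in CKO and 4 of 20 fits in CTL cells that each left out 1 library, and without the 2 CKO 0 h libraries whose Xist went against the label (adjusted p = 0.127 in CKO and 0.0991 in CTL cells, edgeR).

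Bcl2, the founding guardian, was the member that fell in CKO cells. It had 200, 170 and 239 CPM in CKO and 253, 259, 175, 202 and 245 CPM in CTL cells at 6 h, against lowest, median and highest levels of 245, 295 and 341 CPM in CKO and 172, 215 and 262 CPM in CTL cells at 0 h. All 3 CKO libraries at 6 h lay below all 6 at 0 h, while the CTL groups overlapped. The log2 fold change was -0.53 ± 0.15 in CKO cells (adjusted p = 0.0133, edgeR) and 0.04 ± 0.13 in CTL cells (adjusted p = 0.79, edgeR). The CKO call was lost with a filter at a mean of 1 CPM (-0.40, adjusted p = 0.081) and without the CKO 6 h library 5.6 (-0.42, adjusted p = 0.088). The difference between the genotypes' responses was -0.57 ± 0.20 on the log2 scale and was not called (adjusted p = 0.87, edgeR).

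The 2 effectors were called in opposite directions in CTL cells, Bax higher and Bak1 lower, and neither was called in CKO cells. Bax, which encodes a protein that inserts into the outer membrane on activation, had 113, 122 and 123 CPM in CKO and 116, 123, 109, 139 and 137 CPM in CTL cells at 6 h, against lowest, median and highest levels of 85.4, 99.5 and 110 CPM in CKO and 71.9, 86.8 and 91.2 CPM in CTL cells at 0 h. The 6 h libraries lay above the 0 h libraries in both genotypes, by little in CKO cells. Bax was called higher in CTL cells, at a log2 fold change of 0.59 ± 0.09 (adjusted p = 4.34e-05, edgeR), and at 0.25 ± 0.11 it was not called in CKO cells (adjusted p = 0.064, edgeR), where RLE scaling, DESeq2, a filter at 1 CPM and leaving out the CTL 6 h library 4.24 each gave the call (adjusted p = 0.0102 to 0.0325). Bak1, whose product already sits in the membrane, had 50.4, 47.9 and 50.7 CPM in CKO and 42.2, 27.4, 47.8, 38.0 and 41.9 CPM in CTL cells at 6 h, against 53.8, 63.5 and 79.6 CPM in CKO and 44.0, 53.2 and 67.1 CPM in CTL cells at 0 h. The CKO groups were apart, and in CTL cells 1 library at 6 h overlapped the 0 h range. Bak1 was called lower in CTL cells at -0.49 ± 0.13 (adjusted p = 0.00389, edgeR) and not in CKO cells at -0.36 ± 0.16 (adjusted p = 0.076, edgeR). The fit with the library number as a block called it in CKO cells (-0.38, adjusted p = 0.0209), as did 3 other settings and 2 of the fits that left out 1 library.

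Of the BH3-only genes, Bcl2l11 rose in both genotypes. The gene encodes BIM, which binds all the guardians. It had 252, 248 and 271 CPM in CKO and 231, 128, 212, 219 and 238 CPM in CTL cells at 6 h, against lowest, median and highest levels of 60.4, 80.7 and 86.02 CPM in CKO and 63.1, 72.6 and 77.2 CPM in CTL cells at 0 h. Every 6 h library exceeded every 0 h library of both genotypes, and library 4.24 was the lowest at 6 h. The log2 fold change was 1.73 ± 0.14 in CKO and 1.53 ± 0.13 in CTL cells (adjusted p = 5.53e-08 and 2.66e-08, edgeR), with the smallest SE relative to the change of any member.

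Pmaip1 and Bid were not called at 6 h against 0 h in either genotype. Pmaip1, which encodes NOXA, a partner of MCL1 and A1, had log2 fold changes of 0.39 ± 0.31 in CKO and 0.05 ± 0.27 in CTL cells (adjusted p = 0.34 and 0.89, edgeR). Bid, whose product links death receptors to mitochondria once caspase-8 cuts it, had 0.06 ± 0.20 in CKO and 0.23 ± 0.17 in CTL cells (adjusted p = 0.82 and 0.24, edgeR). Bid had 23.2, 22.4 and 39.5 CPM in CKO and 25.1, 16.3, 22.2, 33.7 and 27.5 CPM in CTL cells at 6 h, against lowest, median and highest levels of 19.8, 26.8 and 33.995 CPM in CKO and 20.4, 20.9 and 22.3 CPM in CTL cells at 0 h. Its groups overlapped, and as for Bcl2l1 the 6 h libraries 11.18, 9.20 and 10.28 were the highest. Bid shares 628 exon bases with Bcl2l13 on the opposite strand, which stood at 33.4 to 82.7 CPM, and without a stated strand setting for the counting its level is uncertain.

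Other members overlap annotated genes as well. Bcl2 shares 558 exon bases with the antisense gene D630008O14Rik (0.18 to 1.53 CPM). Bak1 shares 437 and 177 exon bases with separate opposite-strand gene entries that are both named Ggnbp1. The counts hold a single gene of that name (3.50 to 9.93 CPM). On their own strand Bcl2a1b shares 401 with Gm29094 (0.09 to 1.17 CPM) and Bax shares 192 with Gm45808 (0 to 0.04 CPM). Each of these 4 neighbours with a level was counted lower than the member beside it.

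The second question was whether loss of Pcbp2 changed the members. At 6 h 0 of the 10 members were called between CKO and CTL cells, where 0.253% of all genes tested were called; DESeq2 called 0 as well (1.4% of all genes tested), and 2 had an unadjusted p under 0.05 (15.1% of all genes tested did). The libraries of both genotypes did not overlap for 4 of the 10 members, all 4 higher in CKO cells (Mcl1, Bak1, Bcl2l11 and Pmaip1), where 3.65% of all genes tested were apart with CKO higher and 6.69% in either direction. Regulatory T cell markers summed to 384.1 to 585.3 CPM in CKO and 232.3 to 418.8 CPM in CTL cells at 6 h, with all 4 log2 fold changes of the list positive and 1, that of Gpr83, called (log2 fold change 1.30, adjusted p = 0.0338, edgeR). At 6 h against 0 h in CKO cells Il2ra (3.04) and Foxp3 (0.75) were called higher, and Ikzf2 (-0.85) and Gpr83 (-1.15) lower. The sum at 6 h therefore mixes markers that moved in opposite directions with the beads and time. The part of these markers in the members' values was not tested.

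Pmaip1 had the largest log2 fold change of the 10 members between genotypes at 6 h. It stood at 21.2, 25.2 and 17.95 CPM in CKO cells and at 12.8, 16.02, 12.9, 8.45 and 7.21 CPM in CTL cells at 6 h. The lowest CKO library lay above the highest CTL library. The log2 fold change of 0.91 ± 0.32 (a fold of 1.88) did not pass the adjustment (adjusted p = 0.32, edgeR). It was 1.05 without the CTL library 4.24 (adjusted p = 0.25), and between 0.78 and 1.05 over all fits that left out 1 library.

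For Bcl2l11, Mcl1 and Bak1 the gap between the genotypes at 6 h was narrow and its size rested in part on library 4.24, the lowest CTL library for each. The log2 fold change of CKO against CTL was 0.32 ± 0.15 for Bcl2l11, 0.25 ± 0.13 for Mcl1 and 0.33 ± 0.16 for Bak1 (adjusted p = 0.32 for each, edgeR). Without library 4.24 the values were 0.19 for Bcl2l11, 0.15 for Mcl1 and 0.22 for Bak1, with adjusted p from 0.62 to 0.70. For Bak1 the ranges were apart by 47.9 CPM in the lowest CKO against 47.8 CPM in the highest CTL library.

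The other 6 members overlapped between the genotypes at 6 h. Their log2 fold changes were -0.45 ± 0.27 for Bcl2a1b, -0.28 ± 0.27 for Bcl2a1d, -0.16 ± 0.16 for Bcl2, -0.07 ± 0.11 for Bax, 0.05 ± 0.32 for Bcl2l1 and 0.18 ± 0.20 for Bid (adjusted p from 0.33 to 0.92, edgeR). The Bcl2l1 value had no stable sign: it was -0.56 without library 11.18 (adjusted p = 0.46), -0.12 without the CTL library 4.24, and negative in 2 other fits that left out 1 library, with a filter at 1 CPM and with the number as a block. That of Bid was -0.13 without library 11.18. The median over the 10 members was 0.12, beside -0.34 over all genes tested and 0.07 over genes with a mean of at least 1 CPM.

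At 0 h 0 of the 10 members were called between CKO and CTL cells by edgeR, where 0.705% of all genes tested were called. DESeq2 called 1, Bcl2 (adjusted p = 0.0485), where it called 2.04% of all genes tested. Unadjusted, 4 members had a p under 0.05 (Bcl2, Bax, Bid and Pmaip1), where 8.61% of all genes tested did. The log2 fold change was positive for all 10 members, with a median of 0.32, beside a median of -0.08 and 39.8% positive over all genes tested, and 0.02 and 55.6% over genes with a mean of at least 1 CPM. The libraries of both genotypes overlapped for each member, where 1.93% of all genes tested did not. Equal numbers pair 5 CKO with 5 CTL libraries at 0 h, and within these pairs the CKO library was the higher in 5 of 5 pairs for Bcl2, Bcl2l1, Bax and Bak1, in 4 for Mcl1, Bcl2a1b, Bcl2a1d, Pmaip1 and Bid, and in 3 for Bcl2l11. The share of all genes tested with such pair counts was not taken, and the pairing is not settled. These pair counts are therefore no result about the family. With the number as a block no member was called. The regulatory T cell markers summed to 191.4 to 588.8 CPM in CKO and 136.3 to 256.9 CPM in CTL cells at 0 h, with all 4 positive and 1 called (Gpr83, log2 fold change 1.08, adjusted p = 0.0140, edgeR); their part was not tested.

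Bcl2 carried the smallest p of the members at 0 h, with a median of 295 CPM in CKO and 215 CPM in CTL cells and a log2 fold change of 0.41 ± 0.12 (adjusted p = 0.19, edgeR). Its lowest CKO library, at 245 CPM, lay within the CTL range, which reached 262 CPM. In the pairs it had 302 CPM in CKO against 253 CPM in CTL cells (4.29), 308 against 172 (4.24), 289 against 204 (5.13), 341 against 262 (5.6) and 245 against 209 (9.20). Bax followed at 0.26 ± 0.09 (adjusted p = 0.26, edgeR), with medians of 99.5 CPM in CKO and 86.8 CPM in CTL cells. Pmaip1 had 10.6, 15.9 and 25.7 CPM in CKO and 5.80, 9.79 and 17.9 CPM in CTL cells as the lowest, median and highest levels, and a log2 fold change of 0.56 ± 0.26 (adjusted p = 0.56, edgeR). Bid was tight in CTL cells, between 20.4 and 22.3 CPM, and wide in CKO cells, between 19.8 and 33.995 CPM, with a log2 fold change of 0.35 ± 0.16 (adjusted p = 0.55, edgeR). The remaining 6 members had log2 fold changes of 0.12 to 0.38 with adjusted p from 0.62 to 0.82 (edgeR). Without the 2 CKO 0 h libraries whose Xist went against the label, Bcl2 was at 0.34, Bcl2a1b at 0.61 and Pmaip1 at 0.78, and no member was called.

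**Figure D2:**
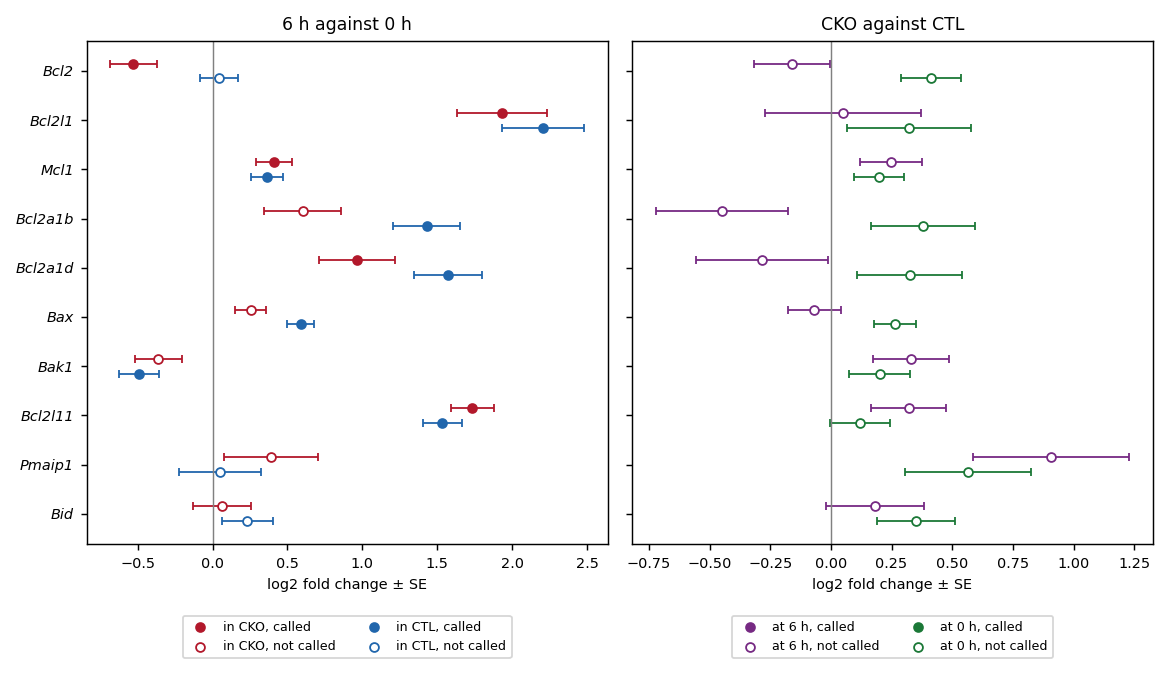
Log2 fold change of each member with its standard error (x axis) for 6 h against 0 h in CKO and in CTL cells (left) and for CKO against CTL cells at 6 h and at 0 h (right). Filled points are called at an adjusted p under 0.05 (edgeR) and open points are not. On the left Bcl2l1 and Bcl2l11 lie farthest to the right in CKO cells, at 1.93 and 1.73; on the right all points are open, and all 10 values at 0 h are positive.

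The difference of the 6 h response between CKO and CTL cells was called for 0 of the 10 members and for 0 of the 28082 genes tested (0%), by edgeR and by DESeq2. Unadjusted, 3 members had a p under 0.05 (3.21% of all genes tested did), each with a smaller value in CKO cells. These were Bcl2 at -0.57 ± 0.20, Bcl2a1b at -0.83 ± 0.35 and Bax at -0.33 ± 0.14, all with an adjusted p of 0.87 (edgeR). The other 7 members had differences between -0.61 and 0.34. Both responses use different libraries, but the CKO groups and the CTL groups shared one estimate of the spread.

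Ratios of 2 members within a library remove the scaling of that library, and they are given as descriptions with no test. Bcl2l11 to Bcl2, on the per-length scale, was 1.44, 1.66 and 1.30 in CKO and 1.04, 0.563, 1.38, 1.24 and 1.11 in CTL cells at 6 h. At 0 h it ran from 0.265 to 0.341 with a median of 0.298 in CKO cells and from 0.275 to 0.437 with a median of 0.390 in CTL cells. The 6 h ratios were all above the 0 h ratios, and the genotypes overlapped at both times. Bcl2l11 to Mcl1 had a median of 0.113 in both genotypes at 6 h, against 0.0493 in CKO and 0.0495 in CTL cells at 0 h.

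Bax to Bcl2 ran from 2.99 to 4.16 in CKO and from 2.67 to 4.01 in CTL cells at 6 h, above the 1.83 to 2.26 in CKO and 1.95 to 2.60 in CTL cells at 0 h. Bcl2l1 to Bcl2 was 0.703, 0.825 and 1.52 in CKO and 0.673, 0.416, 0.753, 1.71 and 1.15 in CTL cells at 6 h, against medians of 0.189 in CKO and 0.208 in CTL cells at 0 h. Both ratios were higher in every 6 h library than in any 0 h library. Pmaip1 to Mcl1, the ratio of a BH3-only gene to its main partner, overlapped among all 4 groups, with medians of 0.0280 in CKO and 0.0185 in CTL cells at 6 h and 0.0265 in CKO and 0.0226 in CTL cells at 0 h. Bcl2a1b to Bcl2a1d was 1.67 to 1.78 in CKO and 1.83 to 2.03 in CTL cells at 6 h, against 1.99 to 2.46 in CKO and 1.97 to 2.38 in CTL cells at 0 h, and the uncertain counting of sequence common to both copies limits what this ratio can say.

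**Figure D3:**
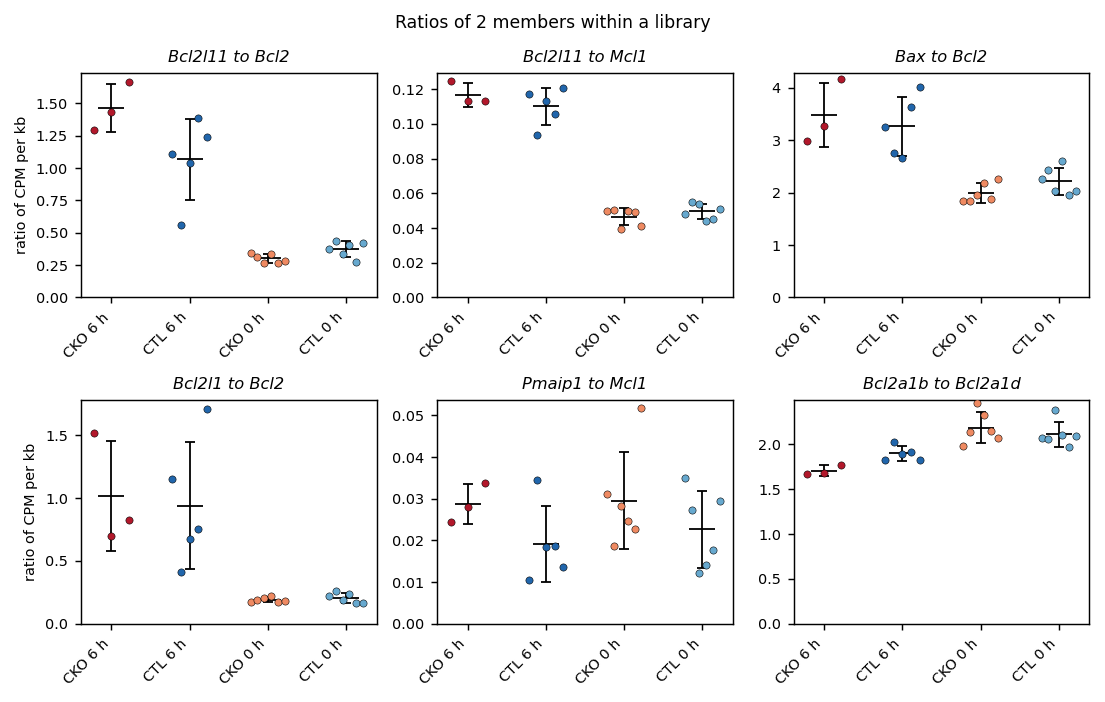
Ratio of 2 members within each library (CPM per kb of exon, y axes from 0) for 6 pairs, by group: CKO 6 h (n = 3), CTL 6 h (n = 5), CKO 0 h (n = 6) and CTL 0 h (n = 6). Points are libraries, the horizontal bar is the mean and the error bar the SD. Bcl2l11 to Bcl2 lies between 0.563 and 1.66 at 6 h and between 0.265 and 0.437 at 0 h.

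Other genes of the same pathways were read from 4 lists. Of the 15 tested genes among 16 other family members, 3 were called at 6 h in CKO cells (1 higher, 2 lower) and 7 in CTL cells (4 higher, 3 lower), where 36% and 60.7% of all genes tested were called in these comparisons. Hrk, a BH3-only gene known from neurons, was called higher in both genotypes at very low levels, 0.51 to 0.79 CPM in CKO and 0.24 to 4.42 CPM in CTL cells at 6 h against 0 to 0.08 CPM in CKO and 0.01 to 0.14 CPM in CTL cells at 0 h (adjusted p = 0.000919 and 0.000125, edgeR). Bcl2l12 was called lower, at -0.53 ± 0.10 in CKO and -0.67 ± 0.08 in CTL cells, and so was Bcl2l2, the guardian BCL-W, at -0.58 ± 0.20 in CKO and -0.73 ± 0.17 in CTL cells. The Bcl2l2 call in CKO cells was lost under 3 of the other alternatives and in 5 of 20 fits that each left out 1 library, those without any 1 of the 3 CKO 6 h libraries among them (adjusted p up to 0.090, edgeR). Bok, an effector-like gene, was called higher in CTL cells (2.48 ± 0.60) at levels under 2 CPM, a value that was 1.58 without the CTL 6 h library 4.24. For Hrk the CTL log2 fold change was 4.80, and 3.95 without that library. None of the 15 was called between genotypes at either time, by edgeR or DESeq2, though 3 had an unadjusted p under 0.05 at each time (15.1% of all genes tested did at 6 h and 8.61% at 0 h).

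In the mitochondrial caspase route, 13 genes downstream of the effectors, 6 were called at 6 h against 0 h in CKO cells (2 higher, 4 lower) and 8 in CTL cells (1 higher, 7 lower), beside 36% and 60.7% of all genes tested. Cycs, which encodes cytochrome c, was higher by 0.60 ± 0.17 in CKO and 0.94 ± 0.15 in CTL cells. Apaf1, its partner in the apoptosome, was higher by 0.59 ± 0.17 in CKO cells (adjusted p = 0.0115, edgeR). Most calls went the other way. Dffa (-0.50 ± 0.09) and Endog (-0.49 ± 0.13) were called lower in CTL cells (adjusted p = 0.000271 and 0.00363, edgeR). Casp6 (-0.29 ± 0.10) was called lower in CKO cells (adjusted p = 0.0287, edgeR), a call lost in 3 of 20 fits that left out 1 library. In CKO cells the Cycs call was lost without the 6 h library 11.18 (0.36, adjusted p = 0.16, edgeR), and the Apaf1 call in 2 of 20 fits that left out 1 library (adjusted p up to 0.067, edgeR); both were lost without the 2 CKO 0 h libraries whose Xist went against the label. Between genotypes at 6 h, 0 of the 13 were called by edgeR and 1 by DESeq2, and 5 had an unadjusted p under 0.05, beside 0.253%, 1.4% and 15.1% of all genes tested.

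The death receptor route, which reaches the family through BID, had 7 of 10 genes called at 6 h against 0 h in CKO cells and 7 of 10 in CTL cells, 3 higher and 4 lower in each, beside 36% of all genes tested in CKO and 60.7% in CTL cells. Fas, the receptor, was higher at 6 h by 0.53 ± 0.11 in CKO and 0.85 ± 0.09 in CTL cells; Tnfrsf1a was lower by -0.90 ± 0.12 in CKO and -1.06 ± 0.10 in CTL cells on the log2 scale. Between genotypes Fas was called higher in CKO cells at 0 h, with a median of 33.9 CPM in CKO against 25.9 CPM in CTL cells (0.39 ± 0.09, adjusted p = 0.0471, edgeR), a call lost in 16 of 20 fits that each left out 1 library (adjusted p up to 0.28) and under 6 other alternatives. Its ligand Fasl was called lower in CKO cells at 6 h, with 9.17 to 11.4 CPM in CKO against 13.6 to 17.7 CPM in CTL cells (-0.60 ± 0.11, adjusted p = 0.0193, edgeR), a call lost in 8 of 20 such fits (adjusted p up to 0.31), those without the CKO 6 h library 5.13 or 5.6 among them, and under 4 other alternatives. At 0 h Fasl was at -0.37 ± 0.09, just outside the threshold (adjusted p = 0.0502, edgeR).

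Of 11 genes known to control members, 6 were called at 6 h in CKO cells (5 higher, 1 lower) and 8 in CTL cells (5 higher, 3 lower), where 36% and 60.7% of all genes tested were called. Foxo1, a transcription factor known to drive Bcl2l11 in resting lymphocytes, was lower by -1.11 ± 0.15 in CKO and -1.40 ± 0.13 in CTL cells on the log2 scale. Stat5a, which carries cytokine signals to Bcl2 and Bcl2l1, was higher by 1.64 ± 0.16 in CKO and 1.51 ± 0.15 in CTL cells. The NF-kB genes Rel and Nfkb1, known to drive Bcl2a1 genes and Bcl2l1, were higher as well, Rel by 1.34 ± 0.21 in CKO and 1.40 ± 0.19 in CTL cells and Nfkb1 by 1.13 ± 0.21 in CKO and 1.31 ± 0.18 in CTL cells (adjusted p from 1.47e-07 to 0.000555 for Stat5a, Rel and Nfkb1 over both genotypes, edgeR). None of the 11 was called between genotypes by edgeR or DESeq2; 3 at 6 h and 0 at 0 h had an unadjusted p under 0.05, beside 15.1% and 8.61% of all genes tested. None of the 4 lists had a gene called for the difference of the responses.

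**Figure D4:**
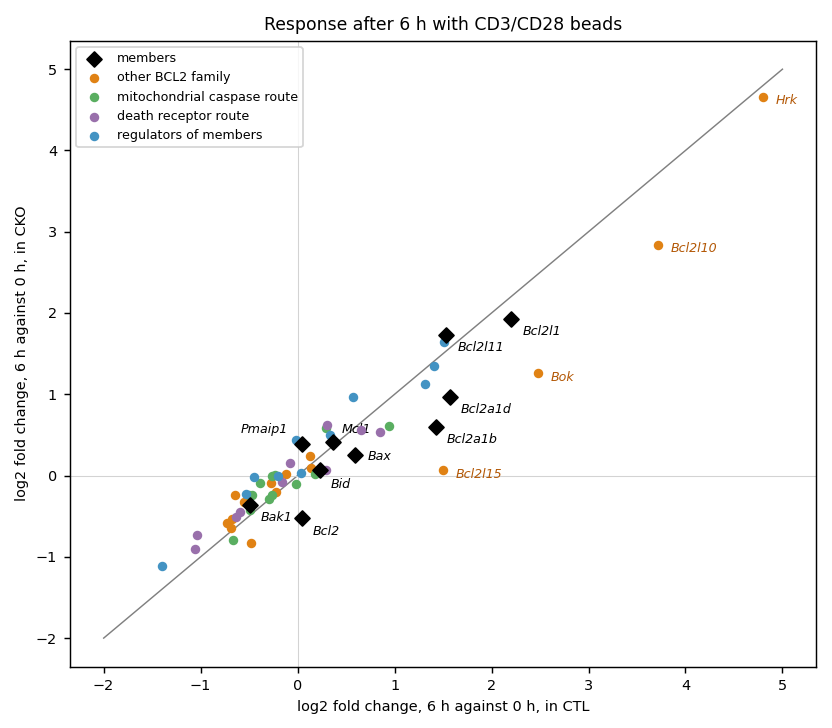
Log2 fold change of 6 h against 0 h in CKO cells (y axis) against that in CTL cells (x axis) for the 10 members (diamonds) and the tested genes of 4 pathway lists (circles). The diagonal marks equal change. Bcl2l11 lies near it at 1.53 in CTL and 1.73 in CKO cells, and Bcl2 lies below it at 0.04 in CTL and -0.53 in CKO cells.

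Likeness to other genes was measured as Pearson's r of log2 CPM over the 20 libraries, among genes with a mean of at least 10 CPM, as a description: the libraries share the 2 times and their scaling. Bcl2l11 was most like Patj (r = 0.99), P2ry10 and Samhd1, and Bcl2l1 was most like Pim3 (r = 0.98), Map2k3 and Noc4l. Bak1 was most like Rab1b (r = 0.97), Calm3 and Cs, and Mcl1 most like Ets2 (r = 0.93). With the group means removed the r was 0.77 for Bcl2l11 with Patj, 0.93 for Bcl2l1 with Pim3, 0.94 for Bak1 with Rab1b and 0.81 for Mcl1 with Ets2. Bcl2a1b and Bcl2a1d, whose transcripts share stretches of read length with another copy, had r = 0.98 with each other over all libraries and within groups. Bcl2a1b was next most like Mrps6 (r = 0.94) and Bcl2a1d most like Srgn (r = 0.95). Bax was most like Orai1 (r = 0.91) and Bid most like Sh3rf1 (r = 0.92). Bcl2 and Pmaip1 had the loosest partners, Acat2 (r = 0.83) and Erbb3 (r = 0.74).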

How the data were processed

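The authors deposited 1 table for the 20 libraries, holding read counts by Ensembl gene without normalization, and 0 columns of other samples. GRCm38 is the build in the submitters' processing notes, which also list featureCounts, Subread 1.5.2, STAR 2.5.2b and Trimmomatic 0.36. The strand setting, annotation release and treatment of reads with several matches: not given in the sources used here. Per the labels' protocols, libraries were TruSeq stranded mRNA. Of 49315 gene IDs, 49056 matched GENCODE M21.

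Counts as deposited were fitted with edgeR 4.0.16 (R 4.3.3): filterByExpr (minimum count 10, total 15), TMM factors, 4 group means over all 20 libraries, robust quasi-likelihood tests, two-sided p adjusted over 28082 genes. No sex term was used because 2 sex labels went against Xist; sex enters as an alternative. The members and lists were chosen with earlier results of these data known. By rule the text names the 10 members and Pcbp2. Per list and comparison the rule selected up to 4 called genes with the smallest adjusted p (or, with none called, up to 2 abundant ones). It also selected 3 like genes per member. Of these list genes and like genes the text names only a part. One gene the rule selects is not reported here. The regulatory T cell markers and genes that overlap members were named after their values were seen. Alternatives were RLE factors, no filter, a mean of 1 CPM, DESeq2 1.42.0, sex, the number as a block, only the groups compared, and leaving libraries out. The fit was tested on simulated data. Precision rests on the spread between libraries, of 26427467 to 85608113 counts.

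Libraries of a group were compared in 43 pairs for copies; the chi-square of their counts, divided by its degrees of freedom, ran from 18.7 to 271, and none was a copy. Whether equal numbers pair libraries was checked on residuals from group means. At 0 h r was 0.21 to 0.71 in 5 pairs of CKO and CTL libraries, beside a median of -0.075 for unequal numbers. It was 0.23 to 0.54 in 5 pairs of CTL libraries at 6 h and 0 h, beside -0.085. Some unequal numbers exceeded equal ones, such as CTL 0 h 9.20 with CKO 0 h 11.18 (0.63) and CTL 0 h 4.29 with CTL 6 h 5.13 (0.36). Equal numbers thus tended to be alike, without settling a pairing. The main fit treats all libraries as unpaired, and the number is a block in an alternative only. CKO libraries at 6 h and 0 h had r of 0.07 to 0.51 in 3 pairs, beside -0.0089. The genotypes at 6 h shared 1 number, 5.13, with r of 0.60, beside a median of -0.057 for unequal numbers. These are not taken as paired.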

Additional observations from a re-analysis of the deposited data

Results flagged for a closer look

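Over 30 tests of members within groups of 4 to 10 libraries for a library far from the others, 1 stood out: Bcl2l11 in the CTL 6 h library 4.24, at 127.7 CPM where the other 4 libraries of the group had 212 to 238 CPM. Chance alone marks about 1 group in 20 by this measure. The same library had the lowest total count of all 20, 26427467, and the lowest level of Mcl1 and Bak1 among the 6 h libraries. Without it the log2 fold change of Bcl2l11 at 6 h against 0 h in CTL cells was 1.68, and that of CKO against CTL cells at 6 h was 0.19.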

How the results depend on the processing

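Count of members called: between genotypes at 0 h it was 1 with DESeq2 (Bcl2) and 0 otherwise. At 6 h against 0 h in CKO cells it was 5, and 3 (without CKO 6 h library 5.6) to 8 (without CTL 6 h library 4.24) when each library was left out. Between genotypes at 6 h and for the difference of responses it stayed 0 under every alternative run; in CTL cells it was 6 to 8. The cause of these changes was not tested.

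Over all genes, the count called at 0 h, 198, became 573 with DESeq2, 119 with the labelled sex, 621 with only the groups compared and 302 without the 2 CKO 0 h libraries whose Xist went against the label (70.9% higher, against 54.0%), and 79 (without CKO 0 h library 4.29) to 584 (without CTL 6 h library 4.24) with each library left out. At 6 h the count, 71, became 113 with a filter at 1 CPM (68.1% higher, against 83.1%), 393 with DESeq2 (73.0% higher), 8 with only the groups compared and 14 (without CKO 6 h library 5.13 or 5.6) to 214 (without CTL 6 h library 5.13) with each library left out. At 6 h against 0 h in CTL cells it was 7501 with the filter at 1 CPM (53.6% higher, against 66.3%), where fewer genes were tested, and in CKO cells 4922 (48.0% higher, against 61.8%) and 6600 (without CKO 6 h library 5.6) to 13432 with each library left out.

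The number as a block gave 46 called genes between genotypes at 6 h and a Bcl2l1 value there of -0.014; among members it changed no call other than that of Bak1 in CKO cells. Small values that changed sign were Bcl2 in CTL cells (-0.075 without the 2 libraries; -0.076 to 0.12 with each library left out), Bcl2l1 at 6 h (-0.035 with the filter at 1 CPM; -0.56 to 0.31), the Mcl1 difference (-0.029; -0.048 to 0.10), Bax at 6 h (0.0024 with only the groups compared), Pmaip1 in CTL cells (-0.059; -0.11 to 0.24), Bid in CKO cells (-0.12; -0.26 to 0.20) and at 6 h (-0.13 to 0.33), Bcl2l13 at 0 h (-0.034 with the labelled sex; -0.013 to 0.14) and Nfkb1 at 6 h (0.0053 with no filter, 0.048 with the block, 0.029 with only the groups compared, 0.016 without the 2 libraries; -0.28 to 0.16). None of these was called in any fit. The 3 CKO libraries limit the comparisons at 6 h.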

Other observations

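Among the 8 libraries at 6 h, Bcl2l1 and Bid were highest in the same 3: CKO 11.18 (181 and 39.5 CPM), CTL 9.20 (172 and 33.7 CPM) and CTL 10.28 (141 and 27.5 CPM). In the other 5 libraries Bcl2l1 lay between 53.9 and 85.2 CPM and Bid between 16.3 and 25.1 CPM. Bcl2, Mcl1, Bcl2l11, Bax and Bak1 overlapped between the 3 libraries and the other 5. The pattern was not particular to members, since 3 genes picked for their likeness to Bcl2l1 were apart in the same way. Pim3 had 89.5 to 101.9 CPM in the 3 libraries and 45.3 to 68.3 CPM in the other 5. Map2k3 had 217.5 to 279.4 against 89.9 to 124.4 CPM, and Noc4l 80.7 to 90.3 against 46.3 to 67.7 CPM. The labels give no batch, date or litter for these numbers, and the pattern was noticed in the values, so no test was made.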
